A study of Homo sapiens with 6 samples.

Results

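The genes described here are targets and feedback regulators of the bone morphogenetic protein (BMP)-SMAD pathway: ID1, ID2, ID3, ID4, SMAD6, SMAD7, BAMBI, BMP2, BMP4 and BMP6. They were taken by gene symbol, and all 10 were found among the 30987 genes of the deposited count table. They were measured by poly(A) RNA-seq in HepG2, an established line of human liver cancer cells. The cells were transfected by lipofection with 1 siRNA duplex against PAIP1 (siRNA3, group siPAIP1) or with non-targeting control siRNA (group Ctrl), and both groups were grown in medium with serum and harvested after 48 h. Each group had 3 biological replicates. PAIP1 encodes poly(A)-binding protein interacting protein 1, a regulator of translation and mRNA decay. The comparison asks how RNA levels in this line differ after PAIP1 knockdown, and it rests on 1 siRNA sequence and 1 cell line.

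BMP ligands bind paired type I and type II receptors at the cell surface, which phosphorylate SMAD1, SMAD5 and SMAD9. These join SMAD4, enter the nucleus and switch on target genes, among them the ID genes and the genes of the inhibitors SMAD6, SMAD7 and BAMBI, which dampen the signal. In the liver, BMP2 and BMP6 made mainly by endothelial cells act on hepatocytes, where the best known target is HAMP, the gene of the iron hormone hepcidin.

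The antisense strands of both siRNAs, taken from the study's siRNA list, are shown because a short match to bases 2 to 8, the seed, can be enough for an siRNA to lower an RNA other than its target. The capitals mark the seed.
siRNA3 antisense strand: uAUCAUCCaaguauggauctt
control siRNA antisense strand: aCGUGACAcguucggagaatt
The DNA letters that pair with the seed of siRNA3, GGATGAT, were found in the canonical transcript of 0 of the 10 genes, over its whole length. In the 3′ UTRs of 12496 canonical transcripts of tested genes the same letters were present in 8.44%.

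The libraries held between 29313211 and 34659866 fragments. Values per library are given in the order of replicates 1, 2 and 3. PAIP1 stood at 26.83, 22.96 and 26.01 FPKM (fragments per kilobase of exon, scaled to the mapped fragments of the library) under Ctrl and at 8.29, 6.54 and 5.47 FPKM under siPAIP1. Its log2 fold change was -1.93 (SE 0.13), with an adjusted p of 0.000918 by edgeR's quasi-likelihood test. The library siPAIP1 replicate 3 stood apart: 357 of 9247 genes exceeded the average of its fellow siPAIP1 libraries by more than 2-fold, against at most 7 genes in any other library. Its deposited FPKM also ran low, at 0.899 of the FPKM that Ctrl replicate 1 had for the same scaled count. Changes are therefore given on the scale of CPM (counts scaled to the library's TMM size), levels between genes in FPKM, and the results are also given without that library where it matters.

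Of the 10 genes, 3 fell in siPAIP1: ID2 to 49.3%, ID4 to 55.2% and ID1 to 70.3% of the mean Ctrl CPM. None rose at an adjusted p under 0.05 by edgeR's quasi-likelihood test, 0 of 9 tested. At an unadjusted p under 0.05 the count was 6 lower (SMAD6, SMAD7 and ID3 in addition) and 0 higher, where 13.8% of all tested genes were lower. DESeq2 gave 2 lower and 0 higher by adjusted p, where 6.92% of the genes it tested fell. BMP2 had too few counts for the test. Over the 15528 genes tested, 6.2% fell and 5.68% rose at the same threshold, 11.9% in either direction. Only ID2 met the additional threshold of a 2-fold change, which 1.1% of all tested genes passed downwards and 1.11% upwards. The log2 fold changes of the 9 tested genes were all below 0, with a median of -0.29, beside a median of 0.03 over all genes tested. For 7 of the 9 (BMP4, SMAD6, SMAD7, ID1, ID2, ID3 and ID4) the highest siPAIP1 library was under the lowest Ctrl library in CPM, and for 0 was the order the reverse. Such a gap without overlap was seen for 17.6% of all tested genes downwards and 19% upwards, 36.6% in all. Without siPAIP1 replicate 3, 5 of the genes fell (ID1, ID2, ID4, SMAD6 and SMAD7), where 12.4% of 15732 tested genes fell. Without Ctrl replicate 1, without Ctrl replicate 3 or without siPAIP1 replicate 2, only ID2 fell, where 1.81%, 1.68% and 2.2% of all tested genes fell. In RNA from a whole culture, fewer cells that express a gene and less RNA per cell cannot be told apart.

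**Figure D1:**
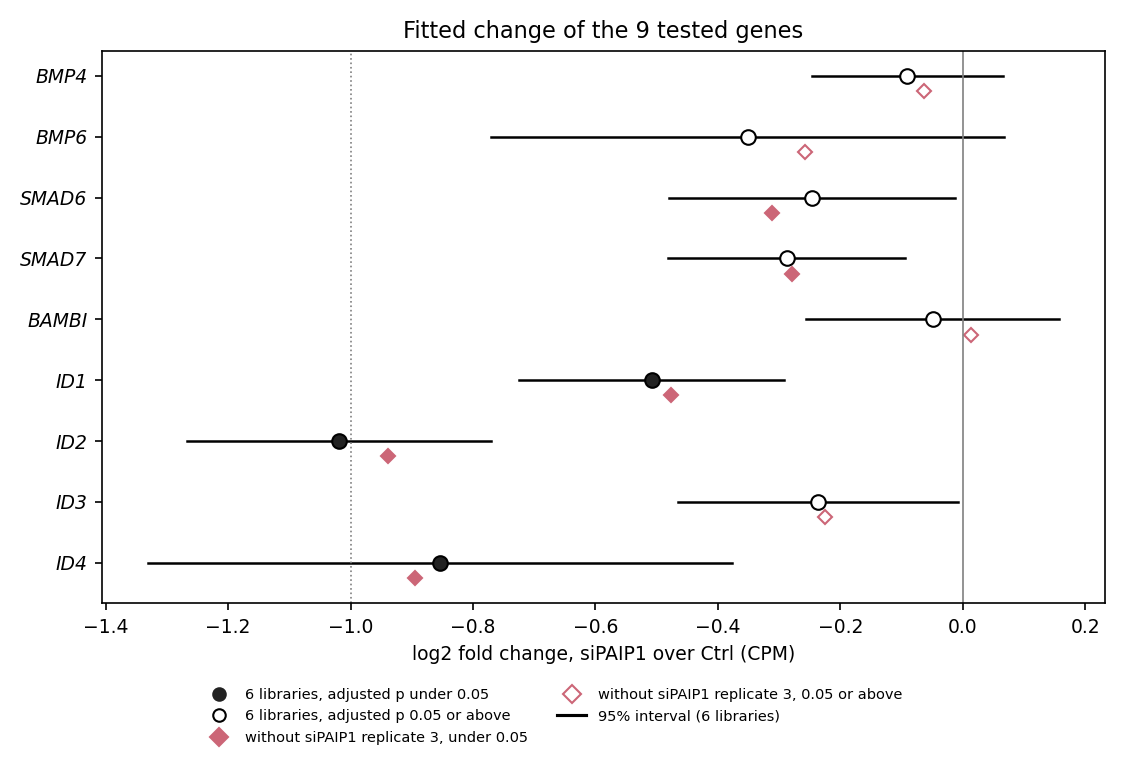
Fitted log2 fold change of CPM, siPAIP1 over Ctrl, for the 9 tested genes, with 95% intervals. Circles use all 6 libraries and diamonds leave out siPAIP1 replicate 3, filled where the adjusted p is under 0.05. The filled circles are ID1, ID2 and ID4, the filled diamonds add SMAD6 and SMAD7, and the dotted line marks a log2 fold change of -1.

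The ligands did not pass the test. BMP4 (ENSG00000125378.15, chr14:53949736-53958761, minus strand), a ligand of the BMP type I receptors, was the most abundant of the 3. Its CPM was 215, 209 and 217 in Ctrl, against 204, 206 and 192 in siPAIP1. The siPAIP1 libraries were all lower, by a narrow margin, and in the authors' FPKM the groups overlapped. The log2 fold change of BMP4 was -0.09 (SE 0.067, 95% interval -0.25 to 0.065) with an adjusted p of 0.401. An antisense non-coding gene lies over BMP4, and since no source used here gives the use of strand in counting, reads of both may be mixed.

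BMP6 (chr6:7726099-7881728, plus strand) encodes the ligand with the best known part in hepcidin control. It was scarce in HepG2, with 107, 126 and 90 fragments in Ctrl and 106, 87 and 67 in siPAIP1, which is 3.20, 3.80 and 2.95 CPM and 3.09, 2.49 and 2.22 CPM. The groups overlapped, since siPAIP1 replicate 1 lay above Ctrl replicate 3. In the fit BMP6 changed by a log2 fold of -0.35 (SE 0.18, 95% interval -0.77 to 0.068), adjusted p = 0.240. TXNDC5, a coding gene of the other strand, overlaps BMP6.

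BMP2 (chr20:6767686-6780246, plus strand), the other ligand of the hepcidin axis, was near the limit of detection. It had 6, 3 and 10 fragments in Ctrl and 14, 9 and 7 in siPAIP1. These ranges overlap, and a difference was not detectable at this depth. With no filter on low counts the log2 fold change of BMP2 was 0.58 (SE 0.57), adjusted p = 0.629.

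Among the inhibitors, SMAD6 and SMAD7 were lower in every siPAIP1 library without passing the test, and BAMBI overlapped between the groups. SMAD7 (chr18:48919853-48950965, minus strand), an inhibitory SMAD that acts on both BMP and TGF-beta receptors, had 34.4, 37.2 and 40.6 CPM in Ctrl. In siPAIP1 the values were 31.1, 30.7 and 30.1 CPM, all below the lowest Ctrl library. For SMAD7 the log2 fold change was -0.29 (SE 0.083, 95% interval -0.48 to -0.094), adjusted p = 0.0663. Without siPAIP1 replicate 3 it was -0.28 with an adjusted p of 0.0167, which passes the threshold.

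SMAD6 (chr15:66702236-66782849, plus strand), the inhibitory SMAD with a preference for the BMP branch, had 14.0, 13.4 and 15.5 CPM in Ctrl and 10.99, 12.1 and 13.1 CPM in siPAIP1. The highest siPAIP1 library lay just under the lowest Ctrl library. SMAD6 stood at a log2 fold change of -0.25 (SE 0.10, 95% interval -0.48 to -0.013), adjusted p = 0.157, and without siPAIP1 replicate 3 it was -0.31 with an adjusted p of 0.0279. A non-coding gene of the same strand overlaps SMAD6.

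BAMBI (chr10:28677510-28682932, plus strand) encodes a pseudoreceptor that resembles a type I receptor but lacks the kinase domain. Its CPM was 43.1, 40.8 and 38.6 in Ctrl and 41.0, 41.7 and 35.7 in siPAIP1, and the groups overlapped. Its log2 fold change was -0.05 (SE 0.089, 95% interval -0.26 to 0.16), adjusted p = 0.743. Without siPAIP1 replicate 3, the lowest library for BAMBI, the direction turned, to 0.014.

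The ID genes encode helix-loop-helix proteins without a DNA-binding region, which bind E-proteins such as TCF3 and keep them from DNA. They are among the best known direct targets of the BMP SMADs. ID2 (ENSG00000115738.9, chr2:8678845-8684461, plus strand) had the lowest adjusted p of the 10 genes. Ctrl held 251, 222 and 264 CPM of ID2, and siPAIP1 held 133, 125 and 107 CPM. The groups were far apart, and siPAIP1 replicate 3 was the lowest library. The mean fell from 246 ± 21.5 to 121 ± 13.2 CPM (SD, n = 3 libraries per group), and the adjusted p of edgeR's quasi-likelihood test was 0.00283. The log2 fold change of ID2 was -1.02 (SE 0.11, 95% interval -1.27 to -0.77). Without siPAIP1 replicate 3 it was -0.94, under 2-fold, with an adjusted p of 5.97e-07. ID2 fell under each of the 14 other settings, with log2 fold changes between -1.09 and -0.94 and adjusted p-values up to 0.0298. The antisense gene ID2-AS1 overlaps ID2.

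ID1 (ENSG00000125968.8, chr20:31605283-31606515, plus strand) was the most abundant of the 10 genes. It had 433, 410.0 and 498 CPM in Ctrl and 330.2, 313 and 299 CPM in siPAIP1. The groups did not overlap, and Ctrl replicate 3 was the highest library. The mean fell from 447 ± 45.4 to 314 ± 15.6 CPM (SD, n = 3 libraries per group), with an adjusted p of 0.0153 by edgeR's quasi-likelihood test. The log2 fold change of ID1 was -0.51 (SE 0.093, 95% interval -0.72 to -0.29). The call was lost without Ctrl replicate 1 (adjusted p = 0.0676), without Ctrl replicate 3 (adjusted p = 0.0674) and without siPAIP1 replicate 2 (adjusted p = 0.0696).

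ID4 (chr6:19837370-19842197, plus strand) was the scarcest of the ID genes. It had 42, 51 and 50 fragments in Ctrl and 26, 29 and 26 in siPAIP1, which is 1.26, 1.54 and 1.64 CPM and 0.758, 0.829 and 0.863 CPM. The groups did not overlap, although the values rest on few fragments. For ID4 the log2 fold change was -0.85 (SE 0.20, 95% interval -1.33 to -0.38), and the adjusted p was 0.0382. Leaving out any library but siPAIP1 replicate 3 ended the call, with adjusted p-values from 0.0850 to 0.147. A non-coding antisense gene overlaps ID4.

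ID3 (ENSG00000117318.8, chr1:23557926-23559501, minus strand) did not pass the test. Its CPM was 163, 152 and 194 in Ctrl and 145, 147 and 141 in siPAIP1. The siPAIP1 libraries lay within a narrow range just below the lowest Ctrl library, while in the authors' FPKM the groups overlapped. For ID3 the log2 fold change was -0.24 (SE 0.098, 95% interval -0.46 to -0.0070), adjusted p = 0.165, and 0.0713 without siPAIP1 replicate 3.

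**Figure D2:**
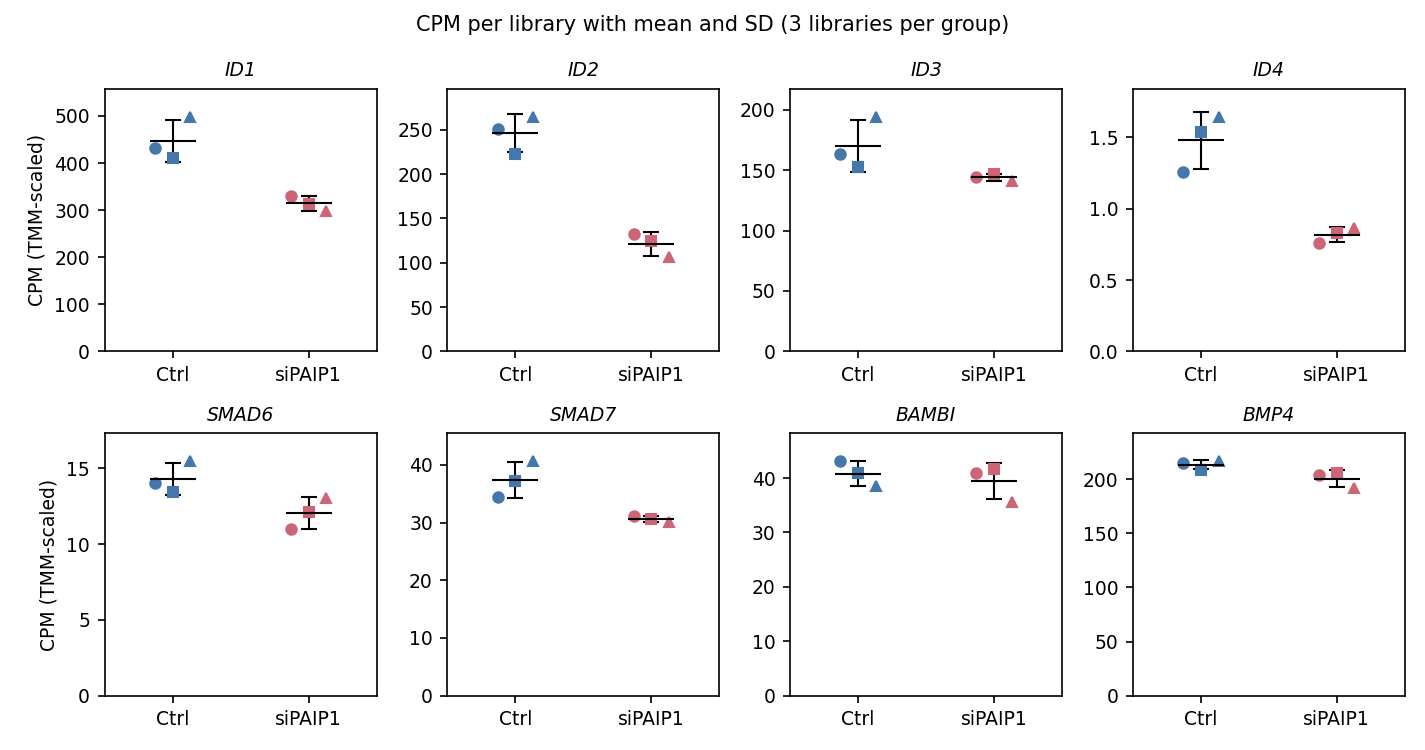
CPM of 8 of the genes in each library (circle, square and triangle for replicates 1, 2 and 3, blue for Ctrl and red for siPAIP1), with the group mean and SD of 3 libraries. The ID2 points lie at 222 to 264 CPM in Ctrl and 107 to 133 CPM in siPAIP1 with no overlap, and the BAMBI points overlap.

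The ID genes are shown with the DNA in front of them, since ID1 passed the test and its close relative ID3 did not. Both sequences run 5′ to 3′ on the gene's strand, from base -250 to base -9 before the RefSeq start of transcription on GRCh38.p14. Capitals mark 5 short words on either strand. The word GGCGCC and its variant with the letters GGAGCC are GC-rich parts of BMP SMAD sites, and GTCTG holds the SMAD box. The words spelled CCAAT and also TATAAA belong to general promoter elements.
ID1, chr20:31605039-31605280, plus strand: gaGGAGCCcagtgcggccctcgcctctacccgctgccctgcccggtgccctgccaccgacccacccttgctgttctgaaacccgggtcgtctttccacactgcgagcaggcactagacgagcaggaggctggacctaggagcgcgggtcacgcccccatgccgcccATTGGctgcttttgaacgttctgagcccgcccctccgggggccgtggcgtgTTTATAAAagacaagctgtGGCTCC
ID3, chr1:23559510-23559751, minus strand: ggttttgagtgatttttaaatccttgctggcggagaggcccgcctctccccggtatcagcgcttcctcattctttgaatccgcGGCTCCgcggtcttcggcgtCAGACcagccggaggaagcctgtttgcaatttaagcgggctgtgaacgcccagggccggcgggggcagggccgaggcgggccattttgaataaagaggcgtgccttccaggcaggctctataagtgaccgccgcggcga
In this window ID1 held GGAGCC at -248 and -14, CCAAT at -84, and TATAAA, which overlaps itself on the opposite strands, at -33 and -31. ID3 held GGAGCC at -167 and GTCTG at -147, and none of the general promoter words. Over 35116 RefSeq promoter windows of 300 bases, GGAGCC was present in 36%, GTCTG in 45.3%, GGCGCC in 19.2%, CCAAT in 34.6% and TATAAA in 11.5%. ID2 held CCAAT at -172, -122 and -78 and none of the other words. Of the ID2 bases from -250 to -9, 194 lie in exons of protein-coding genes, and the annotated ID2 gene begins before this window. The absence of the other words therefore describes this RefSeq start and not every start of ID2. ID4 held TATAAA at -29, CCAAT at -220, GTCTG at -205 and GGAGCC at -145 and -94.

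A longer word joins a GC-rich SMAD site to a SMAD box at a fixed distance. It reads GNCGNC, then 5 bases of any kind, then GTCT. It was searched on both strands over 3000 bases in front of the first listed RefSeq start of each gene. It was present for ID1, ID3 and SMAD6, 3 of the 9 genes with a promoter window, and in front of 2.85% of 15345 genes. A variant with GGNGCC in place of the first part was present for ID3 alone among the 9, and in front of 2.5% of the genes. HAMP had a match to neither. The matches are given in windows of 30 bases, with the word in capitals.
ID1, chr20:31604371-31604400, plus strand, first base of the word at -911: caggcctGGCGTCTAACGGTCTgagccgct
ID3, chr1:23562441-23562470, minus strand, first base of the word at -2962: ccaccctGGCGCCAGGCTGTCTggggctga
ID3, chr1:23559985-23560014, minus strand, first base of the word at -506: aattcctGACGCCAGTGAGTCTggaggtca
SMAD6, chr15:66702206-66702235, plus strand, first base of the word at -23: ccgcggaGCCGCCAAAGTGTCTagactggc
Of the 3 genes that fell, ID1 had a match and ID2 and ID4 had none. Of the others with a window, ID3 and SMAD6 had a match, and SMAD7, BAMBI, BMP4 and BMP6 had none. For ID2 all the bases searched lie inside the annotated gene, which begins at chr2:8678845, so the DNA in front of that annotated start was not searched. SMAD7 and BMP4 each had 3 RefSeq starts, and only the first of them was searched. A match of letters is a description of the DNA and not a measured site.

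The ID genes were set against each other by ratios of counts within a library, where the library size cancels. There were 0.581, 0.543 and 0.531 ID2 fragments per ID1 fragment in Ctrl, against 0.402, 0.398 and 0.357 in siPAIP1. The ratio of ID3 to ID1 was 0.377, 0.372 and 0.389 in Ctrl and 0.438, 0.469 and 0.472 in siPAIP1. The ratio of ID3 to ID2 was 0.649, 0.685 and 0.733 in Ctrl and 1.09, 1.18 and 1.32 in siPAIP1. All 3 ratios were separate between the groups. ID2 had fewer fragments than ID1 in every library, and more than ID3 in each Ctrl library but fewer in each siPAIP1 library. These counts are not divided by gene length. In FPKM, ID3 stood above ID2 in each Ctrl library as well, so this change of order is one of counts only. The differences of the log2 ratios, siPAIP1 minus Ctrl, were -0.52 for ID2 to ID1, 0.28 for ID3 to ID1 and 0.79 for ID3 to ID2. For each, the exact 2-sided permutation p was 0.1, the smallest that 3 against 3 libraries can give, so no ratio could pass 0.05 whether raw or adjusted over the 3. In FPKM, ID2 made up 18.1% to 19.6% of the summed ID genes in Ctrl and 12.3% to 13.9% in siPAIP1. The share of ID1 was 58.6% to 59.5% in Ctrl and 59.1% to 60.1% in siPAIP1, and that of ID3 was 21.7% to 22.7% and 25.9% to 27.8%.

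**Figure D3:**
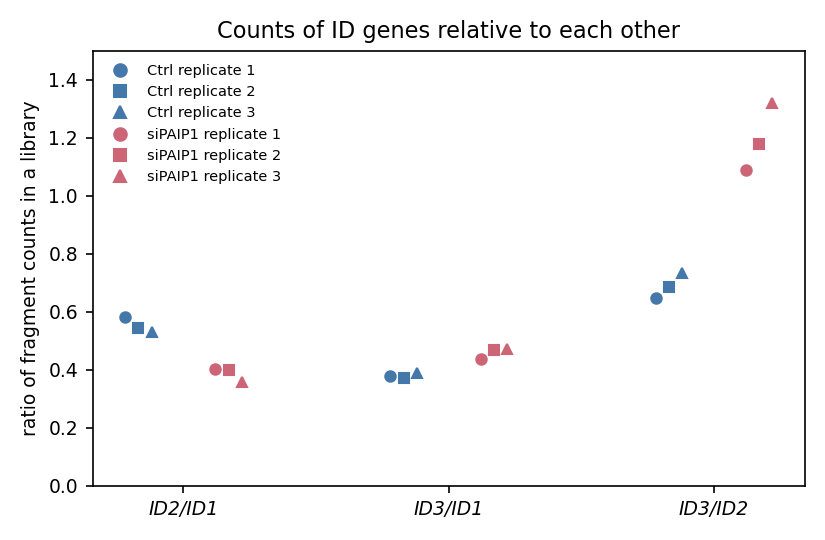
Ratio of the fragment counts of pairs of ID genes in each library, Ctrl in blue and siPAIP1 in red. In the pair ID3/ID2 the Ctrl libraries lie between 0.649 and 0.733 and the siPAIP1 libraries between 1.09 and 1.32, on either side of 1. The counts are not divided by gene length, so a ratio of 1 does not mark equal FPKM.

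Levels spanned several orders of magnitude among the 10 genes. On the FPKM scale, which divides by gene length, ID1 led in Ctrl with 326 ± 37.6 (SD, n = 3 libraries, as for the next values) and ranked 157 of 30706 genes. ID3 followed with 122 ± 17.1, ID2 with 103 ± 10.2 and BMP4 with 91.1 ± 2.84 FPKM. The Ctrl libraries of ID3 and ID2 overlapped, and so did those of ID2 and BMP4, although within each of the 3 Ctrl libraries ID3 stood above ID2 and ID2 above BMP4. BAMBI at 19.5, SMAD7 at 10.5, SMAD6 at 3.35, BMP6 at 1.07, ID4 at 0.567 and BMP2 at 0.0467 mean FPKM each lay below all Ctrl libraries of the gene before. In siPAIP1, ID1 at 234 ± 22.8 still led, ID3 stood at 106 ± 7.68, BMP4 at 87.4 ± 7.91 and ID2 at 52.1 ± 8.15 FPKM. ID2 thus lay below BMP4 in each siPAIP1 library, where the highest ID2 value of 58.19 FPKM was under the lowest BMP4 value of 78.29 FPKM. In Ctrl both had ranged over like values, 92.21 to 112.44 for ID2 and 88.11 to 93.74 for BMP4.

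**Figure D4:**
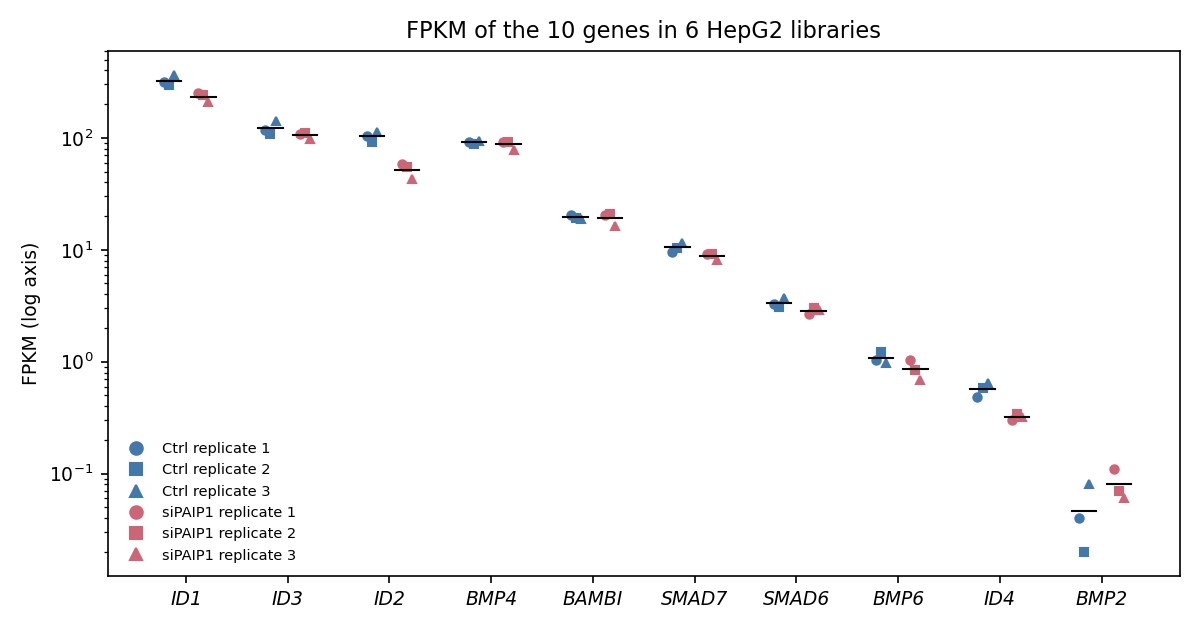
FPKM of the 10 genes in each library on a log axis, ordered by the Ctrl mean, with a line at each group mean. ID1, ID3, ID2 and BMP4 stand at the top, and BMP2 at the bottom with mean Ctrl and siPAIP1 values of 0.0467 and 0.08 FPKM.

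The transcripts of the 3 genes that fell differ in length. In the canonical transcripts of GENCODE release 44, ID1 spans 983 bases in 2 exons, ID3 950 bases in 3, ID2 1299 bases in 3 and ID4 3873 bases in 3. The median over 12496 tested genes was 3244 bases and 9 exons. The AU-rich pentamer ATTTA, a word of unstable mRNAs, was present in the 3′ UTR of all 10 genes, once in ID1 and ID3, 3 times in ID2 and 6 times in ID4. It was present in 70.4% of all the 3′ UTRs searched, with a median of 2 copies. The longer word TATTTAT was present in ID2, ID4, BMP4, SMAD6, SMAD7 and BMP2, and in 34.1% of all.

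The other genes of the pathway were counted in 8 lists by role with 119 genes, of which 79 were tested. Of these 79, 8 rose and 13 fell, with a median log2 fold change of -0.04. Over all tested genes 5.68% rose and 6.2% fell, the shares to set beside the count of each list. Among other BMP-SMAD target genes, 3 of 8 tested fell and 0 rose, with a median of -0.23. HAMP, the gene of hepcidin, had 39.6, 37.8 and 45.7 CPM in Ctrl and 12.4, 10.1 and 10.6 CPM in siPAIP1, with no overlap. Its log2 fold change was -1.90 (SE 0.11), adjusted p = 0.000850, further below 0 than the value of any of the 10 genes, a difference that was not tested. MSX1, a homeobox factor, fell from a mean of 93.6 to 68.8 CPM (log2 fold change -0.44, adjusted p = 0.0133). ATOH8, a helix-loop-helix factor that acts on HAMP, fell from 5.77 to 3.15 CPM (log2 fold change -0.87, adjusted p = 0.0160). The calls of MSX1 and ATOH8 were lost under 4 and 3 of the 14 other settings, and HAMP fell under all 14.

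Upstream of the SMADs the calls went both ways. Of 12 tested receptors and co-receptors, 1 rose and 2 fell (median log2 fold change -0.03). BMPR2, the type II receptor of BMPs, had 26.8, 26.8 and 27.0 CPM in Ctrl and 38.2, 40.1 and 42.9 CPM in siPAIP1. All siPAIP1 libraries were higher, and the log2 fold change was 0.59 (SE 0.075), adjusted p = 0.00505. The co-receptors RGMB and ENG fell, with log2 fold changes of -0.41 (adjusted p = 0.0159) and -0.49 (adjusted p = 0.0305). Their calls were lost under 7 and 6 of the 14 other settings, both of them without Ctrl replicate 1, Ctrl replicate 2, Ctrl replicate 3 or siPAIP1 replicate 2, and BMPR2 rose under all 14. TGFBR2, the most abundant gene of this list, had a log2 fold change of -0.01 (adjusted p = 0.949), whose sign turned without siPAIP1 replicate 3. Of the 6 genes of receptor SMADs and SMAD4, 0 passed the test at an adjusted p under 0.05 by edgeR or by DESeq2, with a median log2 fold change of -0.16. At an unadjusted p under 0.05, 3 were lower by edgeR and 2 by DESeq2, and 3 fell by adjusted p without siPAIP1 replicate 3. SMAD3, the most abundant of the 6, stood at -0.12 (adjusted p = 0.424), and at -0.21 without that library (adjusted p = 0.0324). The 3 lower by edgeR were SMAD9 (log2 fold change -0.55, adjusted p = 0.0779), SMAD4 (-0.29, 0.0733) and SMAD5 (-0.21, 0.169). Over all tested genes 13.8% were lower at that unadjusted p. The groups of these 3 did not overlap in CPM, a gap seen downwards for 17.6% of all tested genes. SMAD1 (0.12, adjusted p = 0.767), SMAD2 (-0.06, adjusted p = 0.588) and SMAD3 overlapped between the groups.

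Of 14 tested ligands of the TGF-beta family other than the 3 above, 2 rose and 1 fell (median 0.17). GDF15, a secreted stress-responsive member, fell from 327 to 199 CPM (log2 fold change -0.72, adjusted p = 0.00317). INHBB, the subunit of activin B, rose from 9.21 to 16.6 CPM (log2 fold change 0.85, adjusted p = 0.0115). GDF1 rose from 1.52 to 3.41 CPM (log2 fold change 1.16, adjusted p = 0.0123), but it shares a transcript with CERS1, so its counts are uncertain. The calls of INHBB, GDF1 and the antagonist NBL1 were lost under 2, 3 and 2 of the 14 other settings. Of 5 tested secreted antagonists, NBL1 rose from 6.04 to 10.5 CPM (log2 fold change 0.79, adjusted p = 0.0123), none fell, and the most abundant, FSTL3, stood at 0.16 (adjusted p = 0.368). The list's median was 0.36.

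Inside the cell, 2 of 20 tested SMAD regulators rose and 3 fell (median -0.06). CTDSPL, a phosphatase, NEDD4L, a ubiquitin ligase for SMADs, and TOB1, an antiproliferative adaptor, fell, with log2 fold changes of -0.52 (adjusted p = 0.00600), -0.45 (adjusted p = 0.0109) and -0.49 (adjusted p = 0.0170). The corepressors TGIF2 and SKIL rose, by 0.32 (adjusted p = 0.0285) and 0.30 (adjusted p = 0.0487). These calls were lost under 10 of the 14 other settings for TGIF2 and 12 for SKIL, while TOB1 lost its call under 7, NEDD4L under 2 and CTDSPL under 0. FKBP1A, which guards type I receptors and is the most abundant of the list, stood at -0.08 (adjusted p = 0.553). TCF3, an E-protein partner of the ID proteins, had 64.2, 67.0 and 60.6 CPM in Ctrl and 98.7, 93.9 and 109 CPM in siPAIP1. It rose in every siPAIP1 library, with a log2 fold change of 0.65 (SE 0.081, adjusted p = 0.00485), and was 1 of 2 tested E-protein genes. The other, TCF12, stood at 0.04 (adjusted p = 0.754) with overlapping groups, and the median of the 2 was 0.35.

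Targets of the TGF-beta branch are given beside the BMP targets. Of 12 tested, 1 rose and 4 fell (median -0.23). CDKN2B, a cell cycle inhibitor, rose from 2.29 to 6.55 CPM (log2 fold change 1.52, adjusted p = 0.00212). TGFBI, TIMP3, CTGF and CDKN1A fell, with log2 fold changes from -0.61 for TIMP3 to -0.37 for CDKN1A and adjusted p-values from 0.00478 for TGFBI to 0.0367 for CDKN1A. The call of CDKN1A was lost under 9 of the 14 other settings, that of CTGF under 4, that of TIMP3 under 2 and that of TGFBI under 0. FN1, fibronectin and the most abundant of them, stood at -0.30 (adjusted p = 0.313), and at -0.54 without siPAIP1 replicate 3 (adjusted p = 0.000896). Leaving out Ctrl replicate 1, Ctrl replicate 2, Ctrl replicate 3 or siPAIP1 replicate 2 brought the pathway genes that fell to 4, 7, 5 and 6, and leaving out siPAIP1 replicate 3 to 21. In the same order, 1.81%, 2.63%, 1.68%, 2.2% and 12.4% of all tested genes fell. The pathway genes that rose came to 3, 3 and 5 without each Ctrl library in turn, where 1.17%, 1.68% and 1.21% of all tested genes rose.

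**Figure D5:**
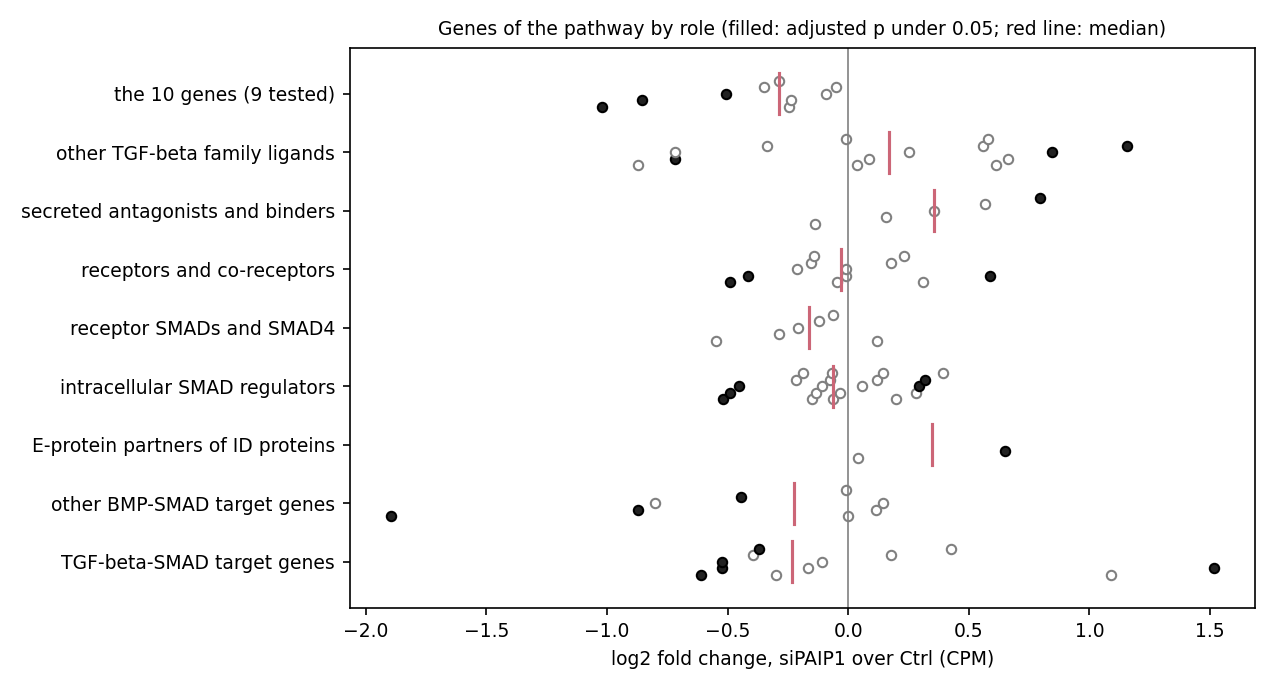
Fitted log2 fold change of CPM, siPAIP1 over Ctrl, for each tested gene of the pathway, in rows by role, filled where the adjusted p is under 0.05, with a red line at each row's median. In the row of the 10 genes all 9 tested points lie below 0, and in the other rows, except that of the E-protein partners, points lie on both sides.

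Of the markers of the labelled cell type, some fell and some did not pass the test. All 8 hepatocyte markers were tested and expressed, and 5 of them (ALB, APOA1, TF, SERPINA1 and TTR) fell, where 6.2% of all tested genes fell. The median log2 fold change was -0.49 over the 8. AFP (-0.46, adjusted p = 0.129), HNF4A (-0.25, 0.268) and APOB (-0.05, 0.810) did not pass, and HNF4A and APOB overlapped between the groups. The count was 7 without siPAIP1 replicate 3, 5 without siPAIP1 replicate 1, and 0 without Ctrl replicate 1, Ctrl replicate 2, Ctrl replicate 3 or siPAIP1 replicate 2. In that order, 12.4%, 4.05%, 1.81%, 2.63%, 1.68% and 2.2% of all tested genes fell. The count was 6 by DESeq2 or with no filter, 5 with RLE factors or at 1 CPM, and 3 with upper-quartile factors. It was 2 with the replicate block and 1 by limma on log2(FPKM + 1) or log2(FPKM + 0.1). In the order named, 6.92%, 3.25%, 6.36%, 7.66%, 5.2%, 2.96%, 3.79% and 3.91% of all tested genes fell. The summed level of the 8 hepatocyte markers was 10159.8 to 10738.3 CPM in Ctrl and 6499 to 8382 CPM in siPAIP1, and its part in the lower ID1, ID2 and ID4 levels was not tested. Of the 8 liver endothelial markers 6 were in the count table and 2 were tested. By edgeR or DESeq2 0 passed, with 1 lower at an unadjusted p under 0.05. The sum of those in the count table was 1.96 to 2.73 CPM in Ctrl and 1.89 to 3.09 CPM in siPAIP1. Of the 8 macrophage markers 6 were in the count table, with a sum of 2.36 to 2.46 CPM in Ctrl and 1.78 to 2.49 CPM in siPAIP1. By edgeR 2 were tested and 0 passed, with 1 (CD14) lower at an unadjusted p under 0.05 (log2 fold change -1.20, adjusted p = 0.137). At that unadjusted p 13.8% of all tested genes were lower. Of the 8 stellate cell and fibroblast markers 6 were in the count table and only ACTA2 was tested, and it rose (log2 fold change 0.67, adjusted p = 0.00753). Their sum, almost all of it ACTA2, was 84.7 to 90.5 CPM in Ctrl and 121 to 152 CPM in siPAIP1, while LUM was at or near 0.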

How the data were processed

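Poly(A) RNA of 3 Ctrl and 3 siPAIP1 HepG2 libraries was sequenced from directional libraries. The authors trimmed the reads with FASTX-Toolkit 0.0.13, mapped them with TopHat2 on GRCh38, allowing 4 mismatches, and deposited raw counts of uniquely mapped fragments per gene. The authors also deposited FPKM values with 2 decimals. No source used here gives the counting tool, its use of strand or the annotation release.

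The count table, with 30987 genes, was scaled by TMM in edgeR 4.0.16 (R 4.3.3), and filterByExpr kept 15528. Group differences were tested with glmQLFit and glmQLFTest, with Benjamini-Hochberg adjustment over all genes tested. Genes with an adjusted p under 0.05 are said to rise or fall. CPM values use the TMM library sizes. The median biological coefficient of variation was 0.124. Single ratios were compared by exact permutation.

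The genes, the pathway lists, the marker lists and the tests were chosen with earlier results of these data known. Named were all 10 genes, PAIP1, HAMP, in each pathway list the genes that passed the test (at most 5, by adjusted p) and the gene of highest FPKM, and for ID2 and ID1 the 3 genes of nearest profile. Alternatives were RLE and upper-quartile factors, no filter or 1 CPM in 3 libraries, DESeq2 1.42.0, limma 3.58.1 on log2(FPKM + 1) and log2(FPKM + 0.1), a replicate block, and leaving out each library. The tests were tried on simulated counts. Promoters are from RefSeq (GRCh38.p14, 9 of 10 genes matched, BMP2 named only), and gene positions and transcripts from GENCODE release 44. These share the files' build. Motifs were searched as exact letters on both strands. Figures used matplotlib 3.10.9.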

Additional observations from a re-analysis of the deposited data

How the results depend on the processing

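ID2 fell and PAIP1 fell under all 14 alternatives. ID1 kept its direction but missed the threshold with limma-trend on FPKM (-0.48 with either pseudocount, adjusted p = 0.0577 with 1 and 0.0546 with 0.1) and with a replicate block (-0.50, 0.0559), and ranged from -0.57 to -0.43 when single libraries were left out. ID4 missed it with no filter (-0.87, 0.0538), with DESeq2 (-0.87, 0.0975) and with the block (-0.85, 0.0905), and ranged from -0.96 to -0.78 when single libraries were left out. SMAD6 (-0.31 to -0.19) and SMAD7 (-0.35 to -0.23) passed only without siPAIP1 replicate 3. BAMBI turned to 0.014 without that library (-0.094 to 0.014 over the 6 left-out libraries). TGFBR2 turned to 0.014 by limma-trend on FPKM with either pseudocount and to 0.044 without siPAIP1 replicate 3 (-0.056 to 0.044).

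The count of the 10 genes that fell was 3 with RLE or upper-quartile factors and at 1 CPM, 2 with no filter, DESeq2 and limma-trend on FPKM, and 1 to 5 when single libraries were left out. Over all genes, 963 fell and 882 rose. Limma-trend on FPKM, which changes both the unit and the test, gave 588 and 607 that fell with pseudocounts of 1 and 0.1, which puts falls at 43.6% and 43.1% of the calls in place of 52.2%. Leaving out single libraries gave 269 to 1952 falls and 187 to 1857 rises, and in the pathway lists 4 to 21 falls and 3 to 11 rises. Deviations of same-numbered libraries from their group means correlated at 0.35, -0.37 and -0.17. The highest value of any Ctrl and siPAIP1 pair was 0.45, for Ctrl replicate 2 with siPAIP1 replicate 3. With deviations taken within groups of 3 libraries, these values cannot settle whether the replicate numbers pair the samples. With the replicate block 459 genes fell and 366 rose, 1 of the 10 genes fell (ID2), and 8 pathway genes fell. The cause of these differences was not tested. Depth limits BMP2, with 3 to 14 fragments a library, and ID4, with 26 to 51. With 3 libraries a group, a p that misses the threshold does not show equal levels.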

Other observations

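The genes whose profile over the 6 libraries lay nearest to that of ID2 were found by the Euclidean distance between log2 CPM values, each gene taken relative to its Ctrl mean, among 11031 genes whose mean log2 CPM was 2 or more. The nearest was APOC3, an apolipoprotein of triglyceride-rich particles, at a distance of 0.0352 and with a log2 fold change of -1.04 (adjusted p = 0.00293 by edgeR). DKK1, a secreted Wnt antagonist, followed at 0.107 with -0.99 (adjusted p = 0.00433), and VDAC2, a channel of the outer mitochondrial membrane, at 0.118 with -1.03 (adjusted p = 0.00297). For ID1 the nearest were ST6GALNAC4, a sialyltransferase, at 0.102, ETFB, a subunit of the electron transfer flavoprotein, at 0.106, and TMEM53 at 0.107. Their log2 fold changes were -0.49, -0.51 and -0.50, each with an adjusted p of 0.0122 to 0.0177. The genes were chosen by these distances, so fold changes and adjusted p-values near those of ID2 and ID1 follow from the choice. The distances describe 6 libraries and were not tested.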
